A study of Homo sapiens with 6 samples.

Results

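The HOX genes of clusters A to D were measured in the human liver cancer line PLC/PRF/5, which was established from a hepatocellular carcinoma. RNA was taken 48 h after cells received small interfering RNA (siRNA). Of the 39 HOX genes of these clusters in the RefSeq table, 36 had a row with a single gene symbol on the array, 1 row each: 10 in HOXA, 10 in HOXB, 7 in HOXC and 9 in HOXD. They are 36 of 15949 named genes and of 18708 transcript clusters, the groups of probe sets that give 1 log2 value per gene. The other 3 were not analysed here. Values are compared by cluster and by position within a cluster, between 3 arrays with a control siRNA and 3 with siRNAs against SLU7, a splicing factor of the second catalytic step. The design text calls the control siGL2, whereas the descriptions of the 3 control samples read siGL1, siGL2 and siGL3, and it is not stated if these digits count replicates or mark different control siRNAs. All 6 samples were transfected with Lipofectamine RNAiMAX, and nothing in the labels says whether replicates were separate cultures. The p-values therefore rest on array-to-array spread that could be purely technical.

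HOX genes encode homeodomain transcription factors that give cells along the body axis their regional identity. In each cluster the genes lie in the order of the body regions they pattern, and genes of the same number in different clusters, called a paralog group, descend from 1 ancestral gene. Paralog groups 1 to 3 are called anterior here, 4 to 8 central and 9 to 13 posterior. HOX proteins bind DNA with PBX, MEIS and PKNOX partners, Polycomb proteins keep unused HOX genes silent, Trithorax proteins keep active ones on, and retinoic acid induces the anterior end of a cluster. Several posterior genes, HOXA13 among them, have been linked to liver cancer.

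SLU7 itself was lower in every knockdown array. It read 7.89, 7.01 and 7.24 log2 units in control replicates 1 to 3 and 5.84, 5.58 and 6.21 in SLU7 replicates 1 to 3. The difference was -1.51 ± 0.31 (SE) log2 units with a limma adjusted p of 0.0783 over all transcript clusters, and an exact two-sided permutation test gave 0.1, the smallest value that 3 arrays against 3 allow. On the first principal component, SLU7 replicate 1 and control replicate 2 separated from the rest, across the groups, so differences are also given within that pair and within the other 4. KRT18, KRT8, TF and APOA1 were bright in both groups, while ALB and SERPINA1 lay below the lower quartile of all rows (4.92 log2 units). All 9 measured hepatoma markers had a negative difference (median -0.51), where 50.5% of all transcript clusters were above 0. None was called in limma, against 0.433% of all. In 4 of the 9 (44.4%) every SLU7 siRNA array lay below every control array, against 9.21% of all. The mean level of the 9 markers ran from 8.66 to 8.90 in the control arrays and from 8.19 to 8.37 in the SLU7 siRNA arrays. The mean level of the 6 fibroblast markers (4.49 to 4.58 with control, 4.35 to 5.00 with SLU7 siRNA) overlapped between groups. So did that of the 6 blood and endothelial markers (5.18 to 5.28 and 5.04 to 5.31). In 1 of these 6 (16.7%), CDH5, all SLU7 siRNA arrays lay below the controls, against 9.21% of all transcript clusters. Over the 6 arrays, blood and endothelial markers ran from 2.09 for PTPRC, the pan-leukocyte marker, to 6.94 for PECAM1. Fibroblast markers ran from 2.94 for DCN to 8.30 for PDGFRB. The part of these markers in the HOX values was not tested.

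No HOX gene passed the test across all transcript clusters, but the members as a family sat above 0. Their median difference, SLU7 siRNA minus control, was 0.25 log2 units against 0.00 over all transcript clusters, and 27 of 36 (75.0%) were positive (25 with quantile normalization) against 50.5% of all. In 10 of 36 genes (27.8%) every SLU7 siRNA array lay above every control array, where the same held for 9.64% of all transcript clusters. The reverse held for 1 HOX gene (2.78%) against 9.21% of all. At an adjusted p under 0.05 in limma, 0 of 36 were called against 0.433% of all transcript clusters (81 of 18708), and the smallest adjusted p in the family was 0.157. At an unadjusted p under 0.05, 8 were higher (22.2%, against 6.55% of all) and 1 was lower (2.78%, against 6.54%). These shares are descriptions: genes of a cluster are neighbours and are not independent of each other. Only 3 arrays per group limit the precision, and the standard errors of the 36 differences ran from 0.24 to 0.57 log2 units.

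The median was above 0 in each SLU7 siRNA array. With every gene centred on its control mean, the median of the 36 genes was 0.46, 0.29 and 0.27 log2 units in SLU7 replicates 1 to 3 and -0.05, 0.05 and -0.05 in the control replicates. The 3 knockdown arrays were all above the 3 control arrays on this measure. The centring itself holds the control medians near 0, so this restates the family difference by array and adds no separate evidence. SLU7 replicate 1 had 22 of the 36 genes above all controls and 2 below all, replicate 2 had 13 and 9, and replicate 3 had 16 and 8. These counts were not made over all transcript clusters, so it is not known how far they differ from the usual share. Within the pair of arrays that stand apart the median difference was 0.28 with 26 genes above 0, and within the other 4 arrays it was 0.19 with 24 above 0. Over all 18708 transcript clusters these medians were -0.02 and 0.02, with 9158 and 9635 above 0. The sign was the same in both array sets for 26 of 36 HOX genes. It was also the same for 12064 of 18708 transcript clusters, so such agreement was common on these arrays.

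**Figure D1:**
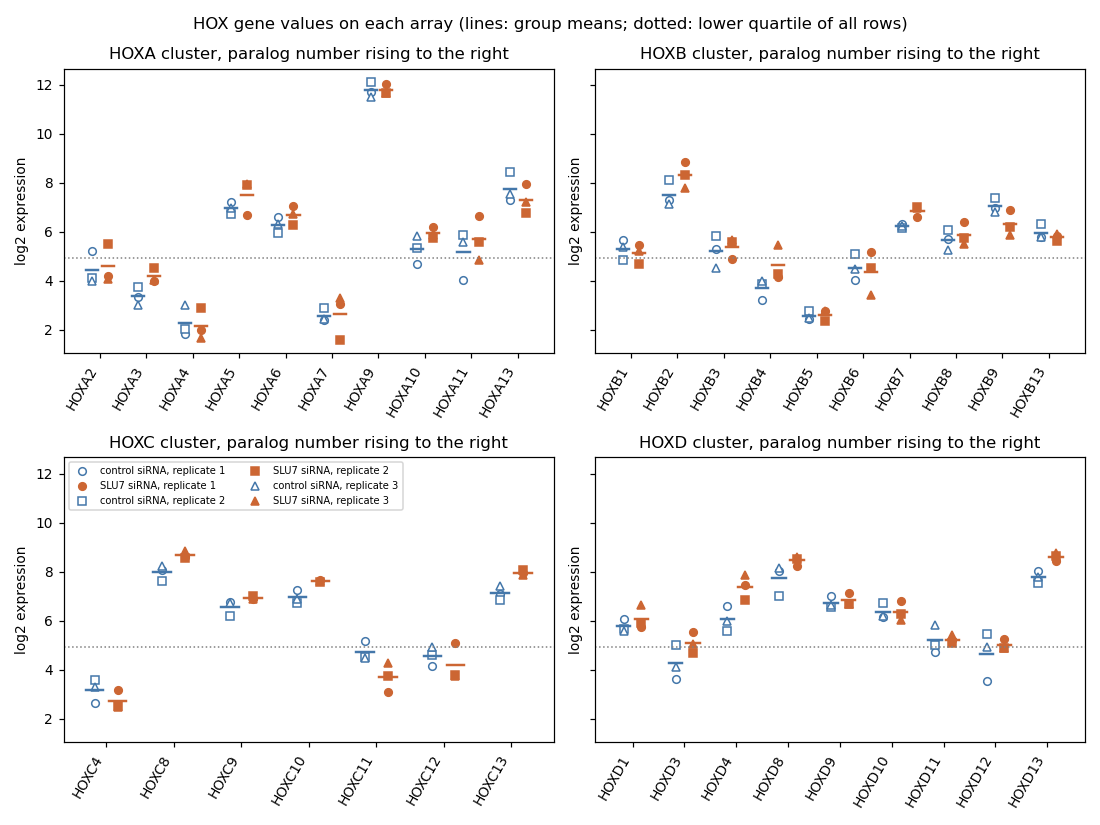
Log2 expression (vertical axis) of each HOX gene (horizontal axis, by paralog number) on each of the 6 arrays. Open blue marks are control siRNA, filled orange marks SLU7 siRNA, mark shapes are replicates, short lines are group means (n = 3) and the dotted line is the lower quartile of all rows, 4.92. HOXA9 lies between 11.49 and 12.13 in both groups, while in HOXD4, HOXC13 and HOXD13 the orange marks lie above the blue ones.

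In signal, the family spanned most of the array's range. The mean over the 6 arrays lay below the lower quartile of all rows for 12 of 36 HOX genes and above the median of all rows (6.61) for 13. Brightness depends on the probes of each row, so the order of genes by signal is not an order of transcript abundance. The 12 dim rows were HOXA2, HOXA3, HOXA4, HOXA7, HOXB4, HOXB5, HOXB6, HOXC4, HOXC11, HOXC12, HOXD3 and HOXD12, and the sizes of their differences are uncertain. The median difference was 0.06 in these and 0.39 in the 24 brighter ones, of which 20 (83.3%) were above 0 and 8 (33.3%) had SLU7 siRNA arrays all above the controls. Over all rows above the lower quartile these shares were 49.5% and 10.8%. Leaving out 1 array moved the difference by over 1.5 times, or turned its sign, in 26 of 36 HOX genes. The 10 genes that stayed within that range were HOXA3, HOXB2, HOXB7, HOXB9, HOXC8, HOXC10, HOXC11, HOXC13, HOXD4 and HOXD13.

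The HOXD cluster was the one in which every member had a positive difference, 9 of 9, with a median of 0.37 log2 units. Without the array pair 6 of the 9 were positive, and without control replicate 1 also 6. HOXD4, a central gene that patterns the hindbrain and neck vertebrae, had the largest positive difference of all 36. It read 6.61, 5.59 and 5.97 log2 units with control siRNA and 7.45, 6.83 and 7.85 with SLU7 siRNA. Each knockdown array was above each control array. The difference of 1.32 ± 0.37 (SE) log2 units, 2.50-fold, had a limma adjusted p of 0.157. In the array pair it was 1.86, and in the other 4 it was 1.05.

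HOXD13, the most posterior gene of the cluster and required for digit formation, read 8.01, 7.52 and 7.77 with control and 8.42, 8.63 and 8.78 with SLU7 siRNA. The groups were separated by 0.41 log2 units, and both sets of arrays gave a similar difference (0.90 in the pair, 0.81 in the other 4). The difference was 0.84 ± 0.26 (SE), with an adjusted p of 0.196 in limma. HOXD8, a central gene, read 8.03, 7.00 and 8.14 with control and 8.23, 8.53 and 8.61 with SLU7 siRNA. Its groups lay only 0.09 apart, with control replicate 2 the lowest array, and the difference was 0.73 ± 0.35 (SE). Without control replicate 2 it was 0.37, and it was 1.23 in the pair against 0.49 in the other 4 arrays.

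The other HOXD genes overlapped between groups. HOXD3, next to HOXD4 and anterior, was at 3.62, 5.00 and 4.12 with control and 5.55, 4.68 and 5.04 with SLU7 siRNA, a difference of 0.84 ± 0.40 (SE) at dim signal. The RefSeq gene models of HOXD3 and HOXD4 overlap, so their rows may share transcript. HOXD1 had a difference of 0.31, which was 0.037 without SLU7 replicate 3, and HOXD12 one of 0.37, which was -0.18 to 0.78 without 1 array. The posterior genes between HOXD8 and HOXD12 were close to 0: 0.10 for HOXD9, 0.02 for HOXD10 and 0.03 for HOXD11, each with an SE of 0.27 to 0.33. HOXD9, HOXD10 and HOXD11 were below 0 in the 4 arrays outside the pair.

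The sequences before the annotated starts of the 3 HOXD genes whose groups did not overlap follow. That of HOXA9, a bright gene of another cluster whose difference was near 0, is given with them. These 4 sequences were picked with the array values known, and HOXA9 alone cannot stand for genes whose groups overlapped. They are 250 bases 5′ to 3′ from the RefSeq promoter table (GRCh38.p14), HOXD4 at chr2:176151300-176151549, HOXD8 at chr2:176129455-176129704 and HOXD13 at chr2:176092471-176092720 on the plus strand, and HOXA9 at chr7:27165538-27165787 on the minus strand. Capitals mark, on either strand, the homeodomain core TAAT, the CCAAT box and the TATA-type motif TATAAA, so a match on the other strand reads ATTA, ATTGG or TTTATA, and adjoining matches run together.
HOXD4: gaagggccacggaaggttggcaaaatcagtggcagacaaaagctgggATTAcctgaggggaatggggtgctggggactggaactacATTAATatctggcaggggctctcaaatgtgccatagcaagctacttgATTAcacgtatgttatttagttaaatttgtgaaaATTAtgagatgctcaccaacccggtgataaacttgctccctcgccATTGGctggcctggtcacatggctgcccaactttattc
HOXD8: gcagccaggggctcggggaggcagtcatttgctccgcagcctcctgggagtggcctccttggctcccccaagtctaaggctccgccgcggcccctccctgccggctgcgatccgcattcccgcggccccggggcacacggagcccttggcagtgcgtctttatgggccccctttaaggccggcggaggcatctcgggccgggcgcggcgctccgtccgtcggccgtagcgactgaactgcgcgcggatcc
HOXD13: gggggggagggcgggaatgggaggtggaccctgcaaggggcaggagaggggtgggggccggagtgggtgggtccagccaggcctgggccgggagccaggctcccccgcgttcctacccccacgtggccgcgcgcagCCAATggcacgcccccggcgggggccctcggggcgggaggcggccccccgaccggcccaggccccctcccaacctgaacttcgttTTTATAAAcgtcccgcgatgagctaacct
HOXA9: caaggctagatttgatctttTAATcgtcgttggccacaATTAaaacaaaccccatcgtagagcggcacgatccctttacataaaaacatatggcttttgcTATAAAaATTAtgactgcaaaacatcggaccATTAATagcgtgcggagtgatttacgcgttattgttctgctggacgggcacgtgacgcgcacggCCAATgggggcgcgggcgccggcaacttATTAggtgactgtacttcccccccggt

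The 4 stretches differed in composition. HOXD4 held 4 CG dinucleotides, 5 TAAT matches and 1 CCAAT match. HOXD8 held 28 CG dinucleotides and none of the 3 motifs, and HOXD13 held 21 with 1 CCAAT match and overlapping TATAAA matches on both strands. HOXA9 held 20 with 6 TAAT matches, 1 CCAAT match and 1 TATAAA match. Of 36 genes, 19 had a promoter in the table. Among these 19, with the first listed start of each gene, 16 (84.2%) held CCAAT, 13 (68.4%) TAAT and 4 (21.1%) TATAAA, against 33.0%, 48.2% and 11.1% of 27305 genes in the table. The median CG count was 21 in the HOX promoters and 11 in all. A match describes letters in this window and is not a binding site, and these counts were not tested against the array values.

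HOXC held 4 genes with SLU7 siRNA arrays all above the controls and the only one with them all below, so 5 of its 7 genes (71.4%) did not overlap, against 18.9% of all transcript clusters in either direction. The median difference was 0.37 log2 units, and 0.18 without control replicate 2. HOXC13, which directs keratin genes in hair and nail, read 7.10, 6.86 and 7.43 with control siRNA and 7.93, 8.08 and 7.85 with SLU7 siRNA. The groups lay 0.42 log2 units apart, the widest gap of any HOX gene. Its difference was 0.82 ± 0.26 (SE), 1.77-fold, with a limma adjusted p of 0.203 (1.07 in the pair and 0.70 in the other 4 arrays).

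HOXC10, active in the lumbar spinal cord and hindlimb, read 7.25, 6.73 and 6.90 with control and 7.65, 7.58 and 7.60 with SLU7 siRNA. The knockdown arrays were close together (SD 0.04, n = 3), and the difference was 0.65 ± 0.25 (SE). HOXC8, a gene of the thoracic region, read 8.08, 7.61 and 8.25 with control and 8.61, 8.54 and 8.86 with SLU7 siRNA, a difference of 0.69 ± 0.27 (SE). HOXC9, its posterior neighbour, read 6.78, 6.17 and 6.71 with control and 6.86, 7.02 and 6.90 with SLU7 siRNA. That difference was 0.37 ± 0.26 (SE), or 0.18 without control replicate 2, and the groups were only 0.09 apart. Adjusted p-values in limma were 0.313 for HOXC10, 0.319 for HOXC8 and 0.647 for HOXC9.

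HOXC11 lay between HOXC10 and HOXC13 in number and had the opposite sign. It read 5.16, 4.52 and 4.47 log2 units with control and 3.07, 3.74 and 4.28 with SLU7 siRNA. All knockdown arrays were below all controls, at dim signal, and the difference of -1.02 ± 0.36 (SE) had a limma adjusted p of 0.27. HOXC12 (-0.36) and HOXC4 (-0.44) were also negative, were dim and overlapped between groups. The HOXC4, HOXC5 and HOXC6 gene models overlap in RefSeq, so the HOXC4 row may include transcript of the others. In HOXC the 4 rows above the lower quartile were thus all positive and the 3 below it all negative.

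**Figure D2:**
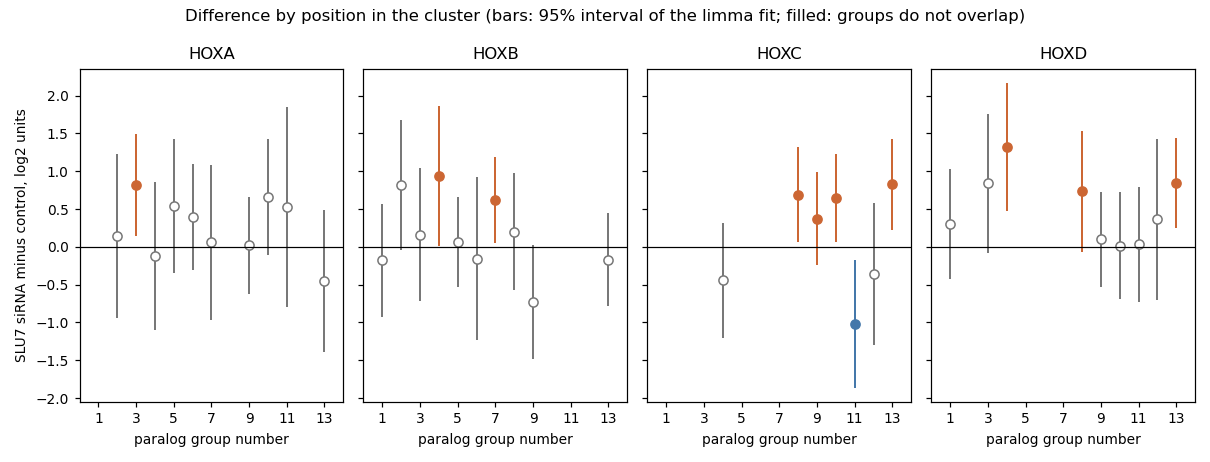
Difference between group means, SLU7 siRNA minus control in log2 units (vertical axis), against paralog group number (horizontal axis) for each cluster. Bars are 95% intervals of the limma fit (3 arrays per group), and filled points are genes whose groups did not overlap, orange for higher and blue for lower. All 9 HOXD points are above 0, and HOXC holds both HOXC13 at 0.82 and HOXC11 at -1.02.

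HOXB had a median difference of 0.11 log2 units, with 6 of 10 genes above 0 (5 with quantile normalization, 4 without control replicate 3 and 4 without SLU7 replicate 1). It was the lowest median of the clusters with all arrays but not without control replicate 2, where it was 0.28 against 0.22 for HOXA and 0.18 for HOXC. HOXB7, a central gene, read 6.30, 6.16 and 6.25 with control siRNA and 6.60, 7.02 and 6.96 with SLU7 siRNA. The control arrays agreed closely (SD 0.07, n = 3) and the groups lay 0.30 apart, with a difference of 0.62 ± 0.24 (SE) and a limma adjusted p of 0.324. HOXB4, known for expanding blood stem cells, read 3.19, 3.87 and 4.0 with control and 4.17, 4.28 and 5.44 with SLU7 siRNA. Its difference of 0.94 ± 0.40 (SE) came at dim signal with SLU7 replicate 3 the highest, and it was 0.53 without that array. HOXB3 overlaps HOXB4 in RefSeq and had opposite signs in the array sets, -0.92 in the pair and 0.70 in the other 4.

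HOXB2, a hindbrain gene and the brightest row of this cluster, read 7.29, 8.11 and 7.11 with control and 8.83, 8.32 and 7.80 with SLU7 siRNA. Control replicate 2 exceeded SLU7 replicate 3, so the groups overlapped, and the difference was 0.82 ± 0.37 (SE). HOXB9, a posterior gene of the thoracic region, had the most negative difference in HOXB. It read 6.96, 7.36 and 6.79 with control and 6.87, 6.19 and 5.86 with SLU7 siRNA, a difference of -0.73 ± 0.33 (SE) with a limma adjusted p of 0.39. SLU7 replicate 1 overlapped the controls, while replicates 2 and 3 lay below them. HOXB13, a prostate and tail-region gene, stood at -0.17, and HOXB1, HOXB5, HOXB6 and HOXB8 lay between -0.18 and 0.20.

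In HOXA, 8 of 10 genes had a positive difference (7 with quantile normalization) and the median was 0.27 log2 units. The count of positive genes was 5 without control replicate 1, and the median was 0.13 without SLU7 replicate 1, 0.17 without control replicate 1, 0.46 without SLU7 replicate 2 and 0.12 without the array pair. Groups did not overlap in 1 of the 10 (10%), HOXA3, which was higher with SLU7 siRNA, near the 9.64% of all transcript clusters that were higher without overlap. HOXA3, needed for thymus and parathyroid development, read 3.34, 3.72 and 3.0 with control and 3.98, 4.51 and 4.02 with SLU7 siRNA. Both groups were dim. The difference was 0.82 ± 0.29 (SE), with an adjusted p of 0.27 in limma. HOXA3 overlaps HOXA4, HOXA5 and HOXA6 in RefSeq, and those stood at -0.13, 0.54 and 0.40.

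HOXA9, a gene whose sustained activity marks many acute leukaemias, was the brightest HOX row, above 98.4% of all rows. It read 11.71, 12.13 and 11.49 with control and 12.05, 11.68 and 11.66 with SLU7 siRNA. The difference was 0.02 ± 0.27 (SE) log2 units, with a 95% interval of -0.61 to 0.65, which is the range that 3 arrays per group leave. Next to it, HOXA10, a gene of the uterus and blood, was at 4.68, 5.35 and 5.81 with control and 6.19, 5.73 and 5.88 with SLU7 siRNA, a difference of 0.66 ± 0.33 (SE), with SLU7 replicate 2 below control replicate 3.

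HOXA13, a posterior gene linked to liver cancer, read 7.31, 8.44 and 7.53 with control and 7.95, 6.78 and 7.19 with SLU7 siRNA. Its groups overlapped and its difference was -0.45 ± 0.40 (SE), at -0.49 in the pair and -0.43 in the other 4 arrays. It was -0.11 without control replicate 2, -0.19 without SLU7 replicate 2 and -0.77 without SLU7 replicate 1. Both arrays of the pair were the highest of their group. HOXA5, a lung development gene, stood at 6.66, 7.92 and 7.95 with SLU7 siRNA against 6.70 to 7.23 with control, so replicates 2 and 3 exceeded the controls and replicate 1 did not. HOXA11 had the largest standard error of the family (0.57). HOXA2 (0.15) and HOXA7 (0.06) were dim and overlapped between groups.

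By position along the clusters, the median difference was 0.31 log2 units in the 7 anterior, 0.40 in the 13 central and 0.07 in the 16 posterior genes. The order of the anterior and central medians was not stable: they were 0.56 and 0.22 with array weights, 0.48 and 0.21 without SLU7 replicate 1, and 0.70 and 0.13 without the array pair. Without control replicate 1 they were 0.53 and 0.55. Differences were above 0 in 6, 10 and 11 of them, and knockdown arrays were all above the controls in 1 (14.3%), 5 (38.5%) and 4 (25%), against 9.64% of all transcript clusters. The per-array medians of the posterior genes were 0.43 in SLU7 replicate 1 and -0.06 and -0.05 in replicates 2 and 3, so the first array alone was above the controls, which ran from -0.13 to 0.05. Those of the central genes were 0.48, 0.56 and 0.72 against -0.07 to 0.03. Among posterior genes, as seen after their values were known, 8 of 10 were positive in HOXC and HOXD, and 3 of 6 in HOXA and HOXB. The 8 include HOXD9, HOXD10 and HOXD11, at 0.10, 0.02 and 0.03. Within the array pair the counts were 8 of 10 and 2 of 6, but in the other 4 arrays they were 5 of 10 and 3 of 6.

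In none of the 3 paralog groups with 4 measured members (4, 9 and 13) did all members have the same sign. In paralog group 13, HOXC13 and HOXD13 were at 0.82 and 0.84 and HOXA13 and HOXB13 at -0.45 and -0.17. Paralog group 4 held HOXD4 and HOXB4 above 0 and HOXA4 and HOXC4 below. Paralog group 9 ran from -0.73 for HOXB9 to 0.37 for HOXC9. The 3 members of paralog group 8 were all positive, with 0.20 for HOXB8, 0.69 for HOXC8 and 0.73 for HOXD8, as were the 3 of paralog group 3 and the 3 of paralog group 10. Each of these groups held 1 gene whose sign was not stable. Without 1 array HOXB8 fell to -0.064, HOXB3 to -0.18 and HOXD10 to -0.21 at the lowest. Paralog group 11, also with 3, was mixed, with 0.52 for HOXA11, -1.02 for HOXC11 and 0.03 for HOXD11.

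**Figure D3:**
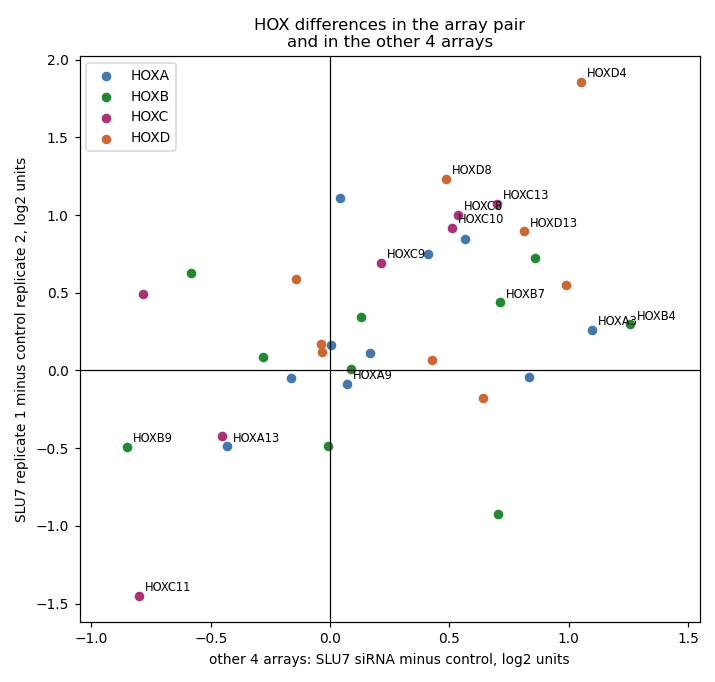
Each point is a HOX gene, with its difference in the 4 arrays outside the pair (horizontal axis, log2 units) and the difference between SLU7 replicate 1 and control replicate 2 (vertical axis, log2 units, single arrays with no error), coloured by cluster. Of 36 genes, 26 have the same sign on both axes, as do 12064 of all 18708 transcript clusters (not drawn). HOXD4 lies at 1.05 and 1.86 and HOXC11 at -0.80 and -1.45.

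The genes that work with or regulate HOX genes had no member that passed the limma test over all transcript clusters, in either direction. In each of 6 lists the gene with the smallest p was followed under other settings, and the other list members were not. Of these 6 picked genes 4 passed in limma: PBX3 (adjusted p = 0.0463), RBBP4 (0.0492) and SKAP1 (0.0485) with the array pair as a block, which was read off these same arrays, and CYP26A1 (0.046) with array weights. Of all 18708 transcript clusters, 783 passed with that block and 575 with array weights. The count of 4 follows from the picking and says nothing about the lists as a whole. Among 7 of 9 HOX cofactors measured, 3 were positive (42.9%, against 50.5% of all transcript clusters), with a median of -0.09 log2 units. The array sets differed: 0 were above 0 in the pair (median -0.70) and 5 in the other 4 arrays (median 0.29). SLU7 siRNA arrays were all below the controls in 2 (28.6%, against 9.21% of all), PBX3 and MEIS1, and all above in 0. PBX3, a homeodomain partner of HOX proteins, had the smallest p of the cofactors. It read 6.81, 5.95 and 6.58 in control and 5.07, 5.73 and 5.29 in SLU7 siRNA arrays. All knockdown values were below the controls, and the difference was -1.08 ± 0.32 (SE) with a limma adjusted p of 0.176. Among 22 of 25 Polycomb genes, 14 were positive (63.6%), with a median of 0.09. In the array pair 14 were above 0 (median 0.25), and in the other 4 arrays 11 were (median -0.0015). SLU7 siRNA arrays were all above the controls in 2, RBBP4 and MTF2, and all below in 0. The 2 are 9.09%, near the 9.64% of all transcript clusters. MTF2 had the larger difference, 1.52 ± 0.49 (SE), with a limma adjusted p of 0.221. RBBP4, a histone-binding subunit of Polycomb complex 2 and of other chromatin complexes, read 9.66, 9.43 and 10.22 with control and 10.61, 11.03 and 10.90 with SLU7 siRNA. It lay higher in all knockdown arrays, by 1.08 ± 0.29 (SE), with a limma adjusted p of 0.151. The 8 of 11 Trithorax genes and activators had a median of 0.04, with KDM6A, a demethylase of the Polycomb mark, at -0.82 ± 0.47 (SE) and dim.

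Retinoid genes leaned the other way from the HOX genes: 11 of 14 measured (of 15 listed) were below 0, and the median was -0.27. That left 3 (21.4%) above 0, against 50.5% of all transcript clusters. In the array pair 6 of the 14 were above 0, and in the other 4 arrays 3 were. SLU7 siRNA arrays were all above the controls in 1 gene (7.14%, against 9.64% of all), ALDH1A1, a retinoic acid synthesis enzyme, at 0.72. They were all below in 1 (7.14%, against 9.21%), CYP26A1. CYP26A1, the enzyme that clears retinoic acid, read 5.00, 5.39 and 5.73 with control and 4.50, 3.84 and 4.36 with SLU7 siRNA. Its difference of -1.14 ± 0.30 (SE) had a limma adjusted p of 0.142, and its mean lay below the lower quartile of all rows. The 7 related homeobox genes outside the clusters had a median of 0.07, with PDX1 the nearest to the threshold at 0.32 ± 0.31 (SE). Of 9 genes flanking the clusters, 8 were measured, with a median of -0.05 and 3 above 0. SKAP1, which flanks HOXB, read 5.76, 5.95 and 5.36 with control and 5.14, 4.34 and 3.95 with SLU7 siRNA, a difference of -1.21 ± 0.35 (SE) with a limma adjusted p of 0.173. The 3 cluster-derived long non-coding RNAs listed, HOTAIR, HOTAIRM1 and HOTTIP, were not analysed here.

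**Figure D4:**
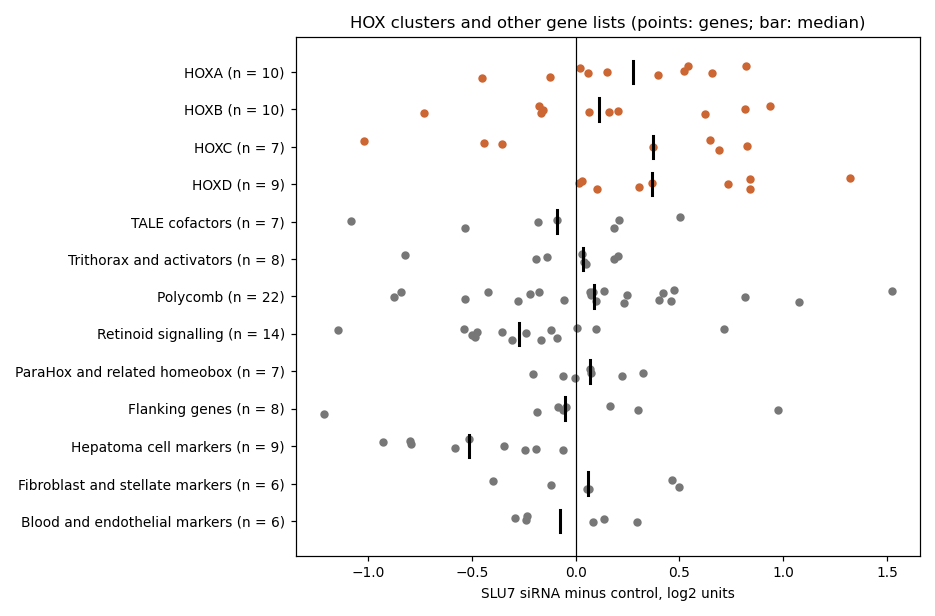
Differences between group means, SLU7 siRNA minus control in log2 units (horizontal axis), for the genes of each HOX cluster (orange) and of the other gene lists (grey). Points are genes, with vertical jitter only, and black bars are medians, which are 0.37 for HOXC and HOXD, 0.27 for HOXA, 0.11 for HOXB, -0.27 for retinoid genes and -0.51 for hepatoma markers.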

How the data were processed

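Each of 6 total RNA samples of PLC/PRF/5 was measured on 1 Affymetrix Human Exon 1.0 ST array. The deposited log2 values (0.96 to 14.49) were summarised by the authors with the core chip definition of aroma.affymetrix, per the labels, and RMA is named in the submitters' processing notes. The genome build is not given in the sources used here, so array rows carry no coordinates. A summary over all exons can show altered exon use as altered level. HOX rows were taken by their platform symbol, and the other lists by symbols updated through RefSeq (GRCh38.p14).

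Group means were compared with limma 3.58.1 in R 4.3.3 (lmFit and eBayes, group only, no filter), Benjamini-Hochberg adjusted over 18708 rows, threshold 0.05. The script was tested on simulated data. Members, lists and alternatives were chosen with earlier results of these data known. Named outside the ranges were SLU7, genes whose groups did not overlap, the brightest and most extreme genes of each cluster, and each list's gene with the smallest p. Other HOX genes, ALDH1A1, MEIS1, MTF2 and the cell type markers were named after their values were seen. Arrays correlated at 0.926 to 0.974 and none was a copy of another. Alternatives were a replicate block, no dim rows, quantile normalization, median centring, an intensity trend, array weights, a stricter threshold, averaged rows, a block for the array pair, and fewer arrays.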

Additional observations from a re-analysis of the deposited data

How the results depend on the processing

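No HOX gene was called under any of the 16 alternatives run. Over all transcript clusters, 81 were called, against 0 with the replicate block, at a threshold of 0.01, without any 1 array or without the array pair, 324 without dim rows, 441 with the intensity trend, 575 with array weights and 783 with the array pair as a block. Besides the 4 regulator and flanking genes already given, SLU7 (-1.51) passed the limma threshold without dim rows (-1.51, adjusted p = 0.0411), with the trend (-1.51, adjusted p = 0.033), with array weights (-1.61, adjusted p = 0.0269) and with the pair as a block (-1.51, adjusted p = 0.043). That block was read off these same arrays, so its p-values are likely too small. The HOX median of 0.25 was 0.39 without dim rows and 0.22 to 0.35 without 1 array. Genes with groups apart numbered 11 (30.6%, against 18.9% of all transcript clusters), 20 without the array pair (55.6% against 46.2%), and 12 to 16 without 1 array (33.3% to 44.4%, against 25.5% to 32.0%). Fewer arrays overlap less often, so the rise is not a result. Without 1 array, 21 to 27 HOX genes were above 0. Of 36 HOX genes, 21 kept their direction under each alternative that gave a value. Without 1 array the others ran as follows: HOXA2 -0.30 to 0.54, HOXA4 -0.48 to 0.24, HOXA7 -0.27 to 0.59, HOXA9 -0.12 to 0.20, HOXA11 -0.041 to 0.93, HOXB1 -0.41 to 0.038, HOXB3 -0.18 to 0.47, HOXB5 -0.011 to 0.20, HOXB6 -0.56 to 0.32, HOXB8 -0.064 to 0.40, HOXB13 -0.26 to 0.015, HOXD9 -0.050 to 0.25, HOXD10 -0.21 to 0.19, HOXD11 -0.20 to 0.35 and HOXD12 -0.18 to 0.78. Quantile normalization gave HOXA7 -0.0057 and HOXB5 -0.0020. Array weights gave HOXA7 -0.16, HOXD9 -0.0087 and HOXD11 -0.15. Without the array pair, HOXD9 was -0.14, HOXD10 -0.033 and HOXD11 -0.038. The cause was not tested. The median of posterior genes ran from -0.059 to 0.20. The median of anterior genes ran from 0.21 without control replicate 3 to 0.70 without the array pair. The HOXB median was -0.069 without control replicate 3 and 0.28 at most, and the median of central genes ran from 0.13 without the array pair to 0.62 without dim rows. Same-numbered arrays of the groups had deviation correlations of -0.381, -0.314 and 0.141, and the highest of any cross-group pair was 0.517, for control replicate 2 with SLU7 replicate 1. Deviations of 3 arrays from their own group mean depend on each other. These values therefore cannot decide if same-numbered arrays were handled together.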
